A study of Rattus norvegicus with 35 samples.

Results

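Bile acid synthesis genes were followed in rat liver across 5 doses of a flame retardant. The set comprised 10 genes: Cyp7a1, Hsd3b7, Cyp8b1 and Akr1d1 of the classic pathway, Cyp27a1, Cyp7b1 and Amacr of the alternative pathway and side-chain steps, Slc27a5 and Baat of conjugation, and the repressor Nr0b2. A member was taken from probe sets annotated with its symbol alone, and its main probe set was the brightest by mean over all arrays. All 10 of 10 members were measured, by 11 of the 31042 probe sets tested, out of 14217 genes with such a probe set. Akr1d1 was the member with more than 1 probe set.

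The animals were male Sprague Dawley rats from Harlan, 7 weeks of age at the start. They received TBB (2-ethylhexyl-2,3,4,5-tetrabromobenzoate, a brominated ester) in corn oil by gavage at 5 ml/kg on 5 consecutive days. The groups were vehicle (corn oil alone, n = 5) and 0.05, 0.55, 5.50, 55 and 550 mg/kg TBB (n = 6 each), 35 arrays in all. RNA came from the left liver lobe taken 1 day after the last dose; the labels give no hour of necropsy and do not state that each array was a separate animal, so p-values measure only how far these samples differ, which may be technical.

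Bile acids are made from cholesterol in hepatocytes. In the classic pathway CYP7A1 adds the first hydroxyl group and sets the rate, HSD3B7 and AKR1D1 modify the sterol ring, and CYP8B1 directs the product towards cholic acid. The alternative pathway begins with the mitochondrial enzyme CYP27A1, which also opens side-chain oxidation, and uses CYP7B1. The side chain is then shortened in peroxisomes after AMACR has changed its stereochemistry, and SLC27A5 and BAAT join the acid to coenzyme A and then to taurine or glycine. The receptor FXR senses bile acids and raises Nr0b2, whose product SHP represses Cyp7a1 and Cyp8b1, and Cyp7a1 is known to follow the time of day in rat liver.

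Values are log2 expression on the RMA scale, so a difference of 1 is a doubling of signal, and levels of different probe sets are not set against each other. Pairwise correlations of arrays across probe sets were 0.988 to 0.996. Cyp1a1, which the aryl hydrocarbon receptor induces, averaged 11.86 ± 0.37 at 550 mg/kg (SD, n = 6) and 8.78 ± 0.69 at 55 mg/kg (SD, n = 6), against 4.53 ± 0.20 in vehicle livers (SD, n = 5). The 7 measured hepatocyte markers had a mean level per array of 13.31 to 13.41 at 550 mg/kg, against 13.39 to 13.43 in vehicle livers. None of 33 measured markers of 8 cell types passed the test in any comparison, and 28 of the 33 had a negative difference at 550 mg/kg. Against the same vehicle arrays 25 of the 33 were negative at 55 mg/kg, 27 at 5.50, 25 at 0.55 and 21 at 0.05 mg/kg. The lean in sign was thus not particular to the top dose, but its size varied. Unadjusted limma p was under 0.05 for 7 of the 33 at 550 mg/kg, beside 2692 of 31042 probe sets. At 0.05 mg/kg it was under 0.05 for 2 markers, beside 1879 probe sets. The 2 red blood cell markers had a median difference of -0.50 at 550 mg/kg and -0.27 at 55 mg/kg. For the 5 stellate markers it was -0.15 and -0.32. Over all probe sets 15207 of 31042 differences were negative at 550 mg/kg. Red blood cell markers ran from 8.78 to 9.38 at 550 mg/kg, against 9.29 to 9.99 in vehicle livers, and Kupffer cell markers from 7.82 to 8.49, against 8.23 to 8.55. Bulk tissue does not separate fewer cells of a type from less RNA per cell, and the part of these marker levels in the results below was not tested.

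At 550 mg/kg against vehicle, 1 of the 10 members rose, Akr1d1, and none fell (limma, adjusted p under 0.05 over all probe sets). The same test called 0.499% of all probe sets, 0.354% higher and 0.145% lower. Over the members 5 differences were positive and 5 negative, with a median of -0.01 on the log2 scale, against a median of 0.0024 over all probe sets. Without adjustment 2 members had a limma p under 0.05, as did 2692 of all 31042 probe sets.

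At the other doses none of the 10 members passed. Against vehicle, limma called 0.00644% of all probe sets at 55 mg/kg and 0% at each of 5.50, 0.55 and 0.05 mg/kg. Unadjusted p was under 0.05 for 0 members at 55 mg/kg, 2 at 5.50 mg/kg, 0 at 0.55 mg/kg and 2 at 0.05 mg/kg. In the same order it was under 0.05 for 1304, 1536, 1198 and 1879 of all 31042 probe sets. At 550 against 55 mg/kg 0 members passed, beside 0.686% of all probe sets (0.577% higher and 0.11% lower). Unadjusted, 2 members and 2927 of all 31042 probe sets were under 0.05. A slope over dose rank called 0 members and 0.171% of all probe sets (0.0966% rising and 0.0741% falling). Unadjusted, 1 member and 2925 of all probe sets were under 0.05 for the slope. The test of any difference among the 6 groups called 0 members and 0.741% of all probe sets. Unadjusted, 2 members and 2582 of all probe sets were under 0.05 in that test. All 5 comparisons with vehicle share the same 5 vehicle arrays.

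**Figure D1:**
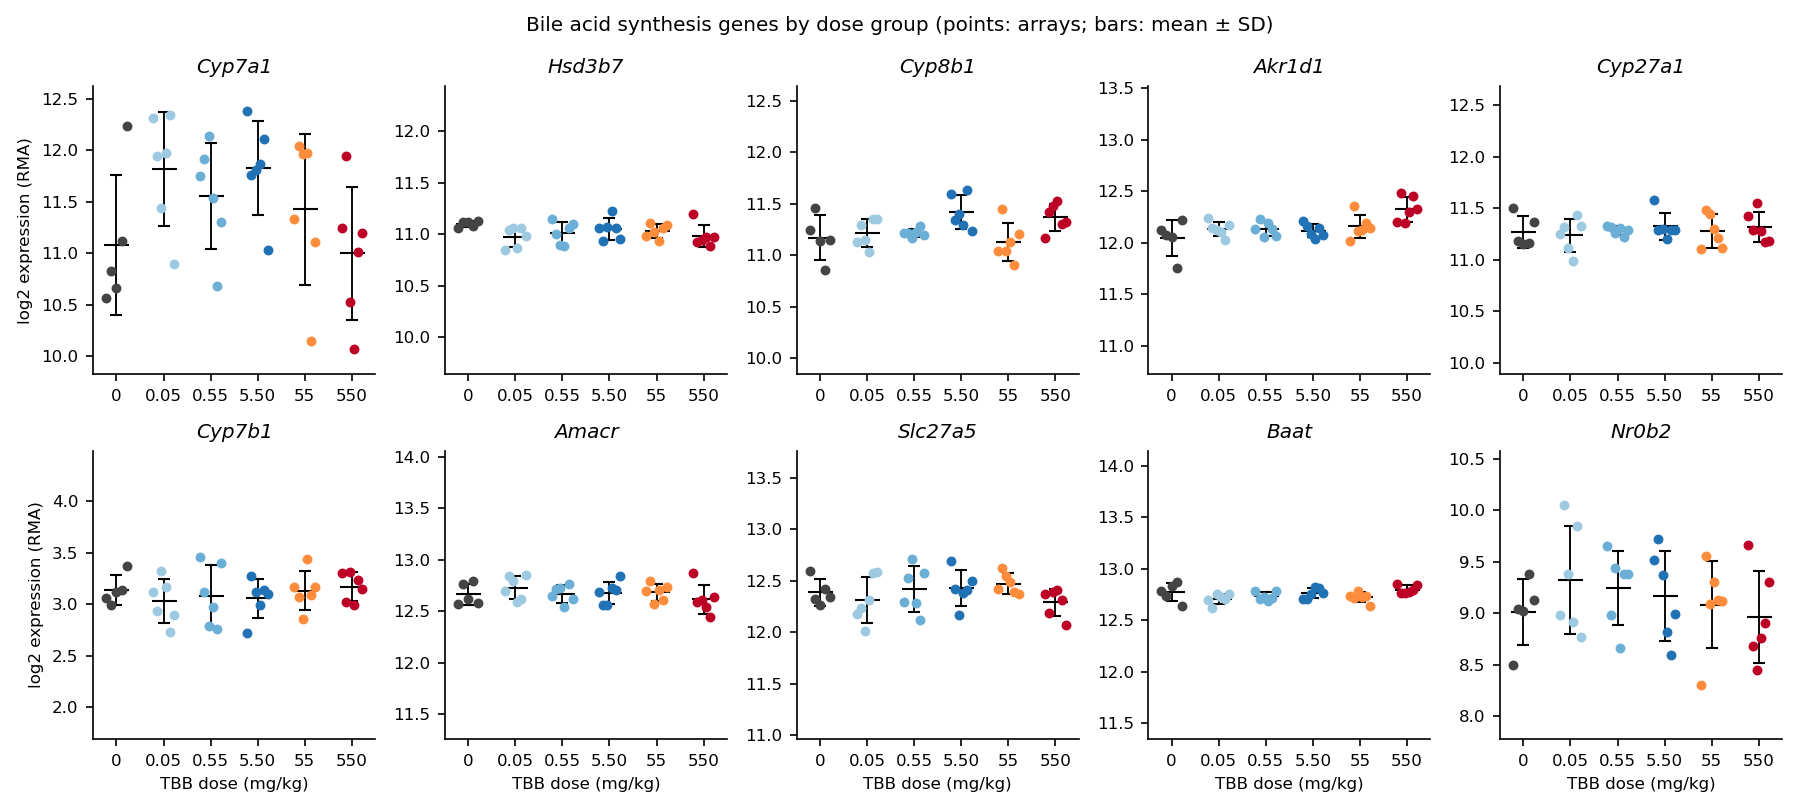
Log2 expression (RMA, vertical axis, the same span in each panel) of the 10 genes against TBB dose in mg/kg, with 0 for vehicle. Points are arrays and bars the mean ± SD of each group. The points of Cyp7a1 and Nr0b2 are spread widely within every group, while those of Baat lie close together.

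Cyp7a1, the rate-limiting enzyme, was the most variable member. Its values were 10.56, 10.83, 10.66, 11.12 and 12.24 in vehicle livers. They were 12.32, 11.95, 11.44, 11.97, 12.34 and 10.90 at 0.05 mg/kg, and 11.75, 11.92, 12.14, 11.54, 10.68 and 11.30 at 0.55 mg/kg. At 5.50 mg/kg they were 12.38, 11.76, 11.81, 11.87, 12.11 and 11.03. Of the vehicle arrays 4 arrays lay low, at 11.12 or below, and replicate 5 lay near the top of the study's range. At 55 mg/kg Cyp7a1 had 11.33, 12.05, 11.96, 11.97, 10.15 and 11.11, and at 550 mg/kg 11.24, 11.95, 10.53, 10.07, 11.01 and 11.20. Every dosed group overlapped the vehicle group.

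Ordered from the highest mean, Cyp7a1 averaged 11.83 ± 0.45 at 5.50 mg/kg, 11.82 ± 0.56 at 0.05 mg/kg, 11.56 ± 0.52 at 0.55 mg/kg, 11.43 ± 0.74 at 55 mg/kg, 11.08 ± 0.68 in vehicle livers and 11.00 ± 0.65 at 550 mg/kg (SD, n = 6, vehicle n = 5). Neighbours in this order differed by less than their SDs. The difference from vehicle was -0.08 at 550 mg/kg (SE 0.34, 95% interval -0.77 to 0.61, limma adjusted p = 0.97), so the interval reaches from 0.586-fold to 1.53-fold. It was 0.74 at 0.05 mg/kg (interval 0.05 to 1.43, adjusted p = 0.80) and 0.75 at 5.50 mg/kg (interval 0.05 to 1.44, adjusted p = 1.00). These were the doses at which Cyp7a1 missed adjustment with an unadjusted limma p under 0.05. The differences at 0.55 and 55 mg/kg were 0.47 and 0.34, with intervals that included 0. At 550 against 55 mg/kg the difference was -0.43 (interval -1.08 to 0.23, adjusted p = 0.76). Vehicle replicate 5 weighed on each comparison: without it the difference was 1.03 at 0.05 mg/kg, 0.76 at 0.55 mg/kg, 1.03 at 5.50 mg/kg, 0.63 at 55 mg/kg and 0.21 at 550 mg/kg, and none of these passed either. Replicate 5 was kept in the main fits and was not among the arrays flagged below as standing apart from their group. With so few arrays in a group, the lack of a flag does not show that an array was typical. It also held the highest vehicle value of Dbp (8.30) and the lowest of Bmal1 (5.50), but neither extreme of Per2 (6.70).

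Hsd3b7, which acts on the sterol ring after CYP7A1, was steady. It ranged from 10.89 to 11.19 at 550 mg/kg with a median of 10.96, against 11.06 to 11.13 with a median of 11.12 in vehicle livers. The difference was -0.12 (SE 0.06, interval -0.24 to 0.00, adjusted p = 0.59). At 0.05 mg/kg its values ran from 10.85 to 11.06, and all 6 lay below the lowest vehicle array. This was the single case among the 10 members and 5 doses in which a dosed group did not overlap vehicle. Group ranges did not overlap for 0.454% of all probe sets at 0.05 mg/kg, 0.345% at 0.55 mg/kg, 0.264% at 5.50 mg/kg, 0.345% at 55 mg/kg and 1.34% at 550 mg/kg. The fitted difference at 0.05 mg/kg was -0.13 (interval -0.25 to -0.00, adjusted p = 0.81) and did not pass.

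Cyp8b1, the enzyme of the cholic acid branch, had 11.17, 11.42, 11.48, 11.52, 11.30 and 11.33 at 550 mg/kg, against 11.25, 11.46, 11.14, 10.85 and 11.15 in vehicle livers. All 550 mg/kg values lay above the vehicle median, and the ranges overlapped. The difference was 0.20 (SE 0.09, interval 0.02 to 0.38, adjusted p = 0.51). At 5.50 mg/kg the values were 11.60, 11.35, 11.40, 11.30, 11.63 and 11.24, all above the vehicle mean, and the difference was 0.25 (interval 0.07 to 0.43, adjusted p = 1.00). The 55 mg/kg group, between these doses, averaged 11.13 ± 0.18 (SD, n = 6), close to the vehicle mean of 11.17 ± 0.22 (SD, n = 5). At 550 against 55 mg/kg Cyp8b1 differed by 0.24 (interval 0.06 to 0.42, adjusted p = 0.28).

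Akr1d1, the reductase that sets the bent ring shape of bile acids, had 12.20, 12.49, 12.19, 12.30, 12.45 and 12.32 at 550 mg/kg, against 12.13, 12.08, 12.06, 11.76 and 12.22 in vehicle livers. All 6 dosed arrays lay above the vehicle mean, and the ranges overlapped at the highest vehicle array. Akr1d1 rose by 0.28 (SE 0.07, interval 0.14 to 0.41, limma adjusted p = 0.047), which is 1.21-fold (1.10 to 1.33). The differences at 0.05, 0.55, 5.50 and 55 mg/kg were 0.09, 0.09, 0.07 and 0.11, all with intervals that included 0. At 550 against 55 mg/kg Akr1d1 differed by 0.17 (interval 0.04 to 0.30, adjusted p = 0.33), and the slope was 0.04 per dose rank (adjusted p = 0.13).

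The second Akr1d1 probe set had 10.84, 10.95, 10.47, 11.03, 11.10 and 11.09 at 550 mg/kg, against 11.01, 11.03, 11.05, 10.75 and 10.41 in vehicle livers. Its difference was 0.06 (interval -0.26 to 0.39, adjusted p = 0.96), which did not pass, with an interval that includes both 0 and the 0.28 of the main probe set. The call on the main probe set ended when any 1 of 8 arrays was left out, namely each vehicle array except replicate 5 and each 550 mg/kg array except replicates 1 and 3, with differences of 0.20 to 0.32 and adjusted p from 0.023 to 0.19 over all 11 omissions. It also ended with array medians subtracted, with cyclic loess, with only these groups fitted and with both probe sets averaged (adjusted p = 0.055, 0.056, 0.32 and 0.54).

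**Figure D2:**
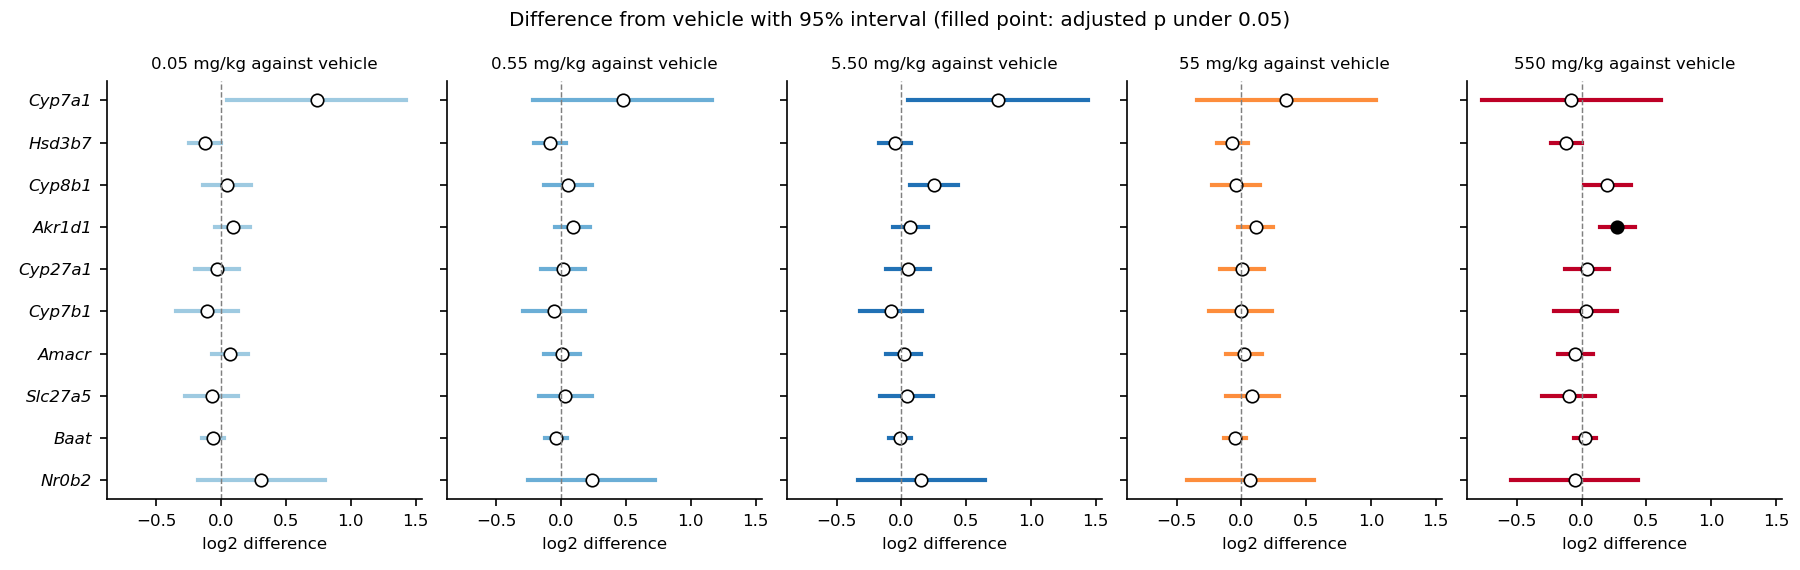
Log2 difference from vehicle (horizontal axis) of the 10 genes at each of the 5 doses, 1 panel a dose, with the 95% interval of the limma fit. Filled points passed adjusted p under 0.05: Akr1d1 at 550 mg/kg is the filled one, and the intervals of Cyp7a1 and Nr0b2 are the widest.

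None of the alternative pathway and side-chain genes passed. Cyp27a1 ranged from 11.17 to 11.55 at 550 mg/kg with a median of 11.29, against 11.15 to 11.50 with a median of 11.18 in vehicle livers, a difference of 0.05 (SE 0.08, interval -0.12 to 0.21, adjusted p = 0.93). Amacr ranged from 12.45 to 12.87 at 550 mg/kg, against 12.57 to 12.79 in vehicle livers, a difference of -0.05 (SE 0.07, interval -0.18 to 0.09, adjusted p = 0.91). The 550 mg/kg and vehicle ranges overlapped for each gene, and for Amacr 3 of the 6 dosed arrays lay outside the vehicle range, 1 above and 2 below. Cyp7b1 had a dim probe set, at the 12.9th percentile of mean level over all probe sets, where RMA values compress differences. It ranged from 2.99 to 3.31 at 550 mg/kg, against 2.99 to 3.37 in vehicle livers, a difference of 0.03 (SE 0.12, interval -0.21 to 0.27, adjusted p = 0.97).

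Of the conjugating enzymes, Baat, which transfers the bile acid to its amino acid, was the steadiest member. Over all 35 arrays it lay between 12.62 and 12.87. It averaged 12.80 ± 0.04 at 550 mg/kg (SD, n = 6) and 12.77 ± 0.09 in vehicle livers (SD, n = 5), a difference of 0.03 (interval -0.06 to 0.11, adjusted p = 0.92). Slc27a5, the bile acid coenzyme A ligase, had 12.37, 12.19, 12.39, 12.41, 12.31 and 12.07 at 550 mg/kg, against 12.60, 12.32, 12.27, 12.42 and 12.34 in vehicle livers. The ranges overlapped, and the difference was -0.10 (SE 0.10, interval -0.30 to 0.11, adjusted p = 0.86). Against 55 mg/kg, the group with the highest Slc27a5 mean, the 550 mg/kg livers differed by -0.18 (interval -0.38 to 0.01, adjusted p = 0.57).

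Nr0b2, which encodes the repressor SHP, had 9.66, 8.68, 8.44, 8.76, 8.91 and 9.31 at 550 mg/kg, against 8.50, 9.04, 9.02, 9.38 and 9.12 in vehicle livers. The vehicle range lay within the wider 550 mg/kg range, and the difference was -0.05 (SE 0.24, interval -0.54 to 0.44, limma adjusted p = 0.98). Its largest difference from vehicle was 0.31 at 0.05 mg/kg (interval -0.18 to 0.80, adjusted p = 0.90). Over the 35 arrays Nr0b2 ran from 8.31 to 10.05, a 3.35-fold range.

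The wide spread of Cyp7a1 was part of the reason for following these genes and is described here without a test. Over the 35 arrays Cyp7a1 ran from 10.07 to 12.38, a 4.95-fold range, and within single dose groups its range was 1.35 to 1.90 log2 units. Its SD between arrays of the same dose was 0.604, at the 99.3rd percentile of all probe sets and the 99.1st of the 3105 brightest, the top 10% by mean. Nr0b2 followed with 0.427, at the 98.3rd percentile of all and the 97.4th of the bright ones. The median SD over all probe sets was 0.141. The dim Cyp7b1 probe set came next with 0.204, at the 86.6th percentile of all probe sets. Slc27a5, Cyp8b1 and Cyp27a1 had SDs of 0.171, 0.153 and 0.139, between the 75.0th and 84.0th percentiles of bright probe sets. Amacr and Akr1d1 stood near the middle, with 0.108 and 0.106. Hsd3b7 had 0.0916 and Baat 0.0526, which put Baat at the 4.22nd percentile of bright probe sets.

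**Figure D3:**
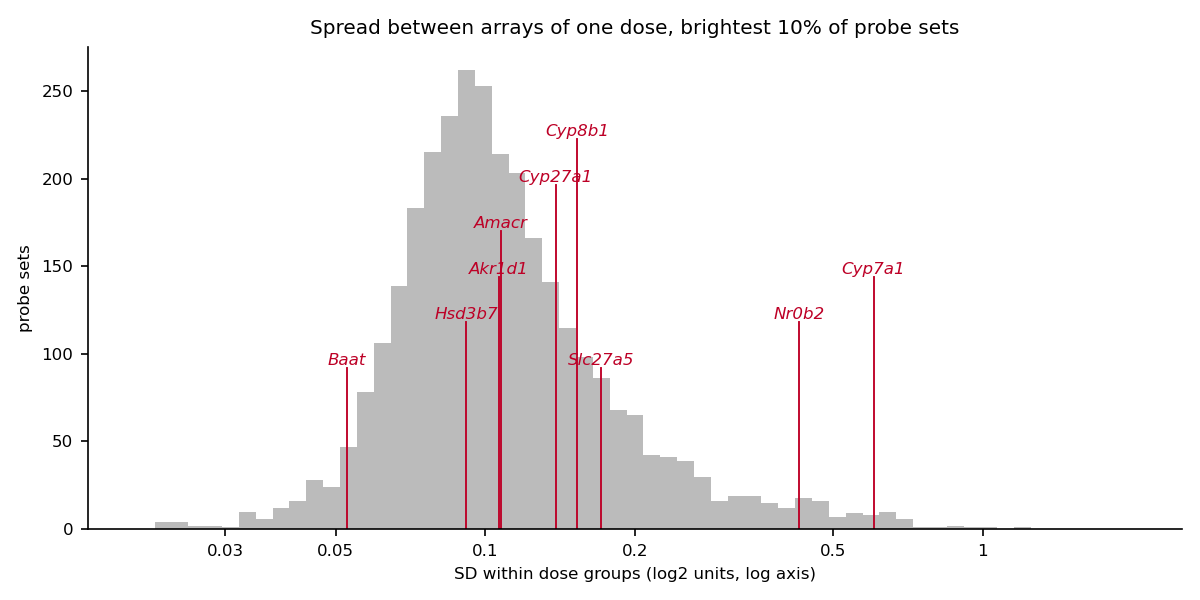
Histogram of the SD between arrays of the same dose (horizontal log axis, log2 units) for the brightest 10% of probe sets (vertical axis, number of probe sets). Red lines mark the members that are among them: Cyp7a1 at 0.604 and Nr0b2 at 0.427 lie in the right tail, and Baat at 0.0526 in the left.

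Whether members moved together between arrays of the same dose was asked with the group means removed. Over the 45 pairs of members Pearson's r ranged from -0.48 to 0.56 with a median of 0.04, and 26 pairs were positive. With 100000 permutations within dose groups 6 pairs had p under 0.05 and 1 passed Benjamini-Hochberg adjustment over the 45. That pair was Cyp27a1 and Slc27a5, with r = 0.564 (permutation p = 0.00044, adjusted p = 0.020, n = 35) and Spearman's rho = 0.502 (permutation p = 0.0025, adjusted p = 0.11). The r was positive in 6 of 6 groups, from 0.146 at 0.55 mg/kg to 0.939 at 55 mg/kg. The pair was picked by the pooled r of these same arrays, so the shared sign is not a separate test. The 2 arrays farthest from the Cyp27a1 median, after the dose means were removed, were then left out. Without them r was 0.454 (permutation adjusted p = 0.21), and the pair no longer passed. With the dose means left in, r was 0.515 and did not pass either (permutation adjusted p = 0.065).

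The other 5 pairs with an unadjusted permutation p under 0.05 all had an adjusted p of 0.29. They were Akr1d1 and Baat (r = -0.484, rho = -0.429), Cyp8b1 and Akr1d1 (r = 0.445, rho = 0.344), Cyp8b1 and Cyp27a1 (r = 0.438, rho = 0.450), Hsd3b7 and Nr0b2 (r = 0.402, rho = 0.441), and Hsd3b7 and Amacr (r = 0.395, rho = 0.294). Without the 2 farthest arrays their r was -0.383, 0.353, 0.474, 0.425 and 0.20, in the same order. Cyp7a1 and Nr0b2, enzyme and repressor, had r = 0.256 (permutation p = 0.17, adjusted p = 0.60, n = 35) and rho = 0.306 (adjusted p = 0.45), with r = 0.301 without the 2 farthest arrays. Cyp7a1 had r = 0.249 with Cyp27a1 and r = 0.0789 with Cyp8b1 (permutation, adjusted p = 0.61 and 0.90), rho = 0.340 and 0.0333, and r = 0.189 and -0.0466 without the 2 farthest arrays.

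RefSeq promoter sequences of build GRCr8 were at hand for 7 of the 10 members; Cyp7a1, Cyp7b1 and Akr1d1 were not among them. The 250 bases before the start of Cyp27a1 and Slc27a5 are shown because these genes formed the pair that passed. Both run 5′ to 3′ on the strand of the gene, and capitals mark matches to the motifs searched.
Cyp27a1, chr9:83713282-83713531, + strand: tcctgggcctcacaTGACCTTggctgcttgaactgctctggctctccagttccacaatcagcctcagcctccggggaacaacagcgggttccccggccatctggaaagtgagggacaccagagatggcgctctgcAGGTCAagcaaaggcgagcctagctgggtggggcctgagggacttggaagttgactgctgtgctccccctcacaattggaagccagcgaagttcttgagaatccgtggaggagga
Slc27a5, chr1:82699336-82699585, - strand: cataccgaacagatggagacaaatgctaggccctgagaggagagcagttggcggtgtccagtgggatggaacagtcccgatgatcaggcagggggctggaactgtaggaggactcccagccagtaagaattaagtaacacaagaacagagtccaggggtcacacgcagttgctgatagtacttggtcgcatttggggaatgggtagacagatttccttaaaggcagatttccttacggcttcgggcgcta

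The motifs were AGGTCA, a core site of nuclear receptors, AAGGTCA, the same site with 1 more base and so always a match to the first, GTTAAT, a core site of HNF1, and TATAAA, each on both strands. Cyp27a1 held AGGTCA at position -115 on its own strand and AAGGTCA at position -236 on the opposite strand, counted from the start to the first base of the match. Slc27a5 held none of the 4 motifs in this window. Of the 7 members, Cyp27a1 and Amacr held AGGTCA and AAGGTCA, Nr0b2 held TATAAA at position -29, and none held GTTAAT. Among 33469 promoters of the same length 14.1% held AGGTCA, 3.99% AAGGTCA, 6.45% GTTAAT and 12.9% TATAAA.

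Cyp7a1 was next set beside genes of the circadian clock and of cholesterol handling across arrays, again with the dose means removed. Of 13 measured genes (8 clock, 5 cholesterol) 8 passed in both Pearson's r and Spearman's rho, 7 of the 8 clock genes and 1 of the 5 cholesterol genes, with permutation p adjusted over the 13. The genes were listed with earlier results of these data known, and the wide spread of Cyp7a1 was part of the choice. These p-values therefore describe these arrays and are not an independent test. Whether the 13 genes vary independently of each other was not tested, so the 8 that passed are not 8 separate results. The smallest r among the 8 was 0.426 in size, and 1135 of the 14216 other genes (7.98%) had an r with Cyp7a1 of at least that size, so many genes outside this list ran with or against Cyp7a1 as strongly. Of the 7 clock genes 6 ran with Cyp7a1 and 1 against it. Per3, a period gene, had r = 0.644 (permutation p = 5e-05, adjusted p = 0.00065, n = 35) and rho = 0.663. Dbp, a transcription factor with a strong daily rhythm in liver, had r = 0.634 (permutation adjusted p = 0.0017) and rho = 0.687. Tef, of the same factor family, had r = 0.601 (permutation adjusted p = 0.0020) and rho = 0.639, and Per1 had r = 0.567 (permutation adjusted p = 0.0020) and rho = 0.622. The REV-ERB receptor genes Nr1d2 and Nr1d1 had r = 0.506 and 0.426 (permutation adjusted p = 0.0071 and 0.020), with rho = 0.595 and 0.438.

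Bmal1, the clock activator that in liver peaks opposite to Dbp, ran against Cyp7a1, with r = -0.531 (permutation adjusted p = 0.0071, n = 35) and rho = -0.543. Per2 had r = 0.231 and did not pass (permutation adjusted p = 0.23). Among the cholesterol genes Insig1, whose product holds back sterol synthesis, had r = -0.451 (permutation adjusted p = 0.017) and rho = -0.396. Insig2 had r = -0.353 (permutation adjusted p = 0.078), Sqle, a cholesterol synthesis enzyme, 0.112, and the sterol exporters Abcg5 and Abcg8 -0.0467 and -0.0698, none of which passed.

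The direction held in each dose group for the clock genes that passed. The pooled r was built from these same arrays, so a shared sign among genes that passed is not a separate test. Within single groups r with Cyp7a1 was positive in 6 of 6 for Per3 (0.489 to 0.911), Dbp (0.109 to 0.840), Tef (0.133 to 0.876), Per1 (0.231 to 0.851), Nr1d2 (0.161 to 0.645) and Nr1d1 (0.188 to 0.770), and negative in 6 of 6 for Bmal1 (-0.851 to -0.149). Insig1 was negative in 5 of 6, from -0.990 in vehicle livers to 0.048 at 55 mg/kg. Among the genes that did not pass, Per2 was positive in 4 of 6 and Insig2 negative in 5 of 6. Sqle, Abcg5 and Abcg8 were each positive in 3 of 6. With the dose means removed, the 2 arrays farthest from the Cyp7a1 median were vehicle replicate 5 and 55 mg/kg replicate 5. Without them r was 0.696 for Per3, 0.522 for Dbp, 0.517 for Per1, 0.497 for Tef and 0.459 for Nr1d2, which passed. It was -0.425 for Bmal1, -0.360 for Insig1 and 0.345 for Nr1d1, which did not pass (permutation adjusted p = 0.062, 0.13 and 0.11). With the dose means left in, 4 of the 13 passed: Per3, Dbp, Per1 and Tef. Per3 is dim, at the 19.6th percentile of genes by mean level. None of the 13 genes passed the test of dose against vehicle at any dose.

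**Figure D4:**
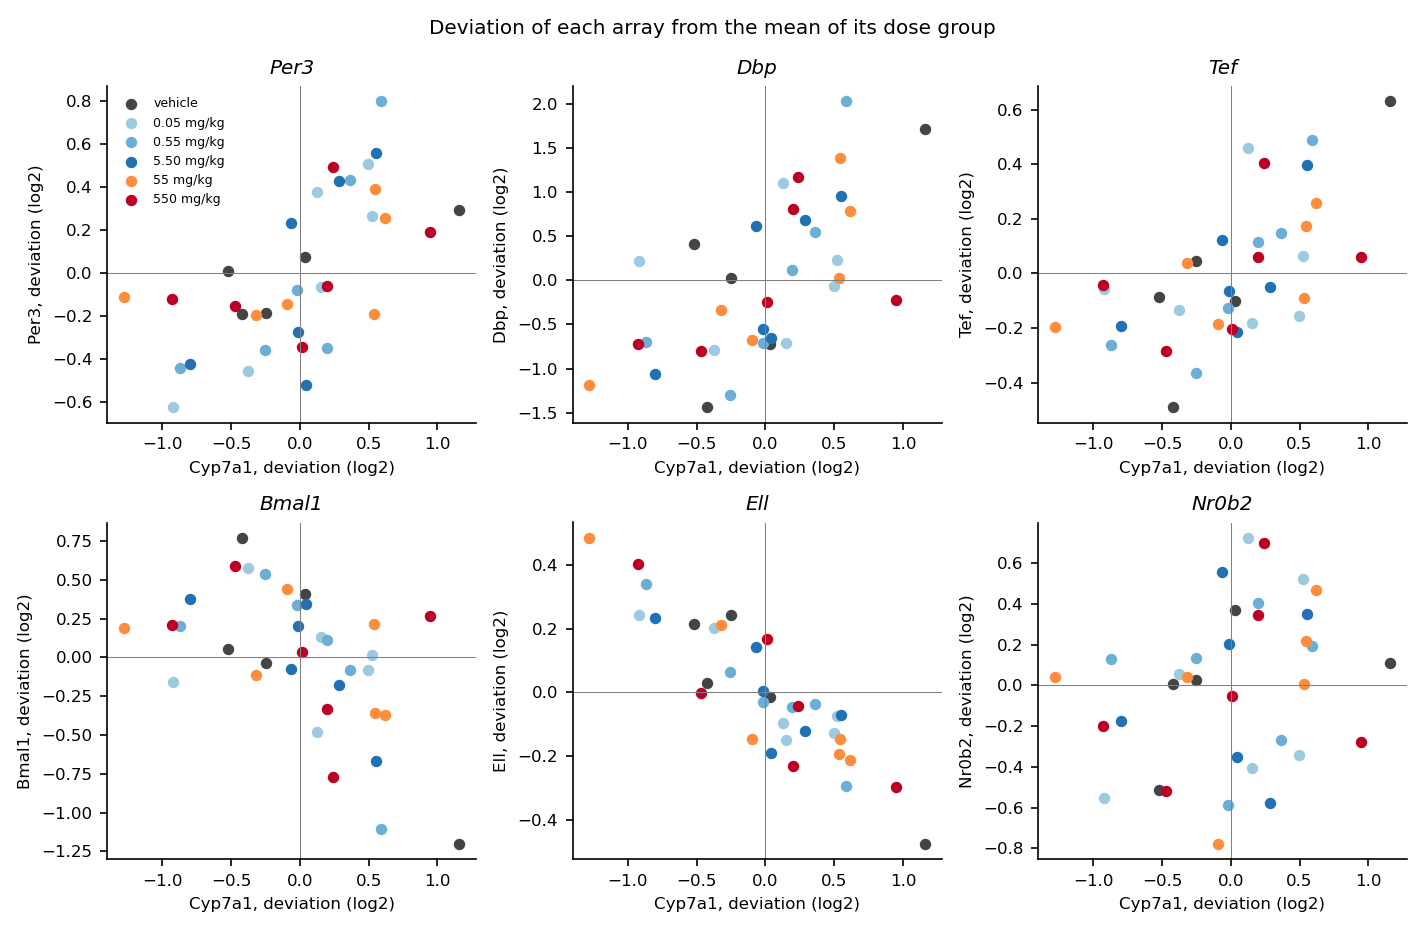
Deviation of each array from the mean of its dose group, for Cyp7a1 (horizontal axis, log2) against Per3, Dbp, Tef, Bmal1, Ell and Nr0b2 (vertical axes, log2, scaled per panel). Points are the 35 arrays, coloured by dose. Per3, Dbp and Tef climb with Cyp7a1 (r = 0.644, 0.634 and 0.601), Bmal1 and Ell descend (r = -0.531 and -0.899), and Nr0b2 shows a loose cloud (r = 0.256).

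**Figure D5:**
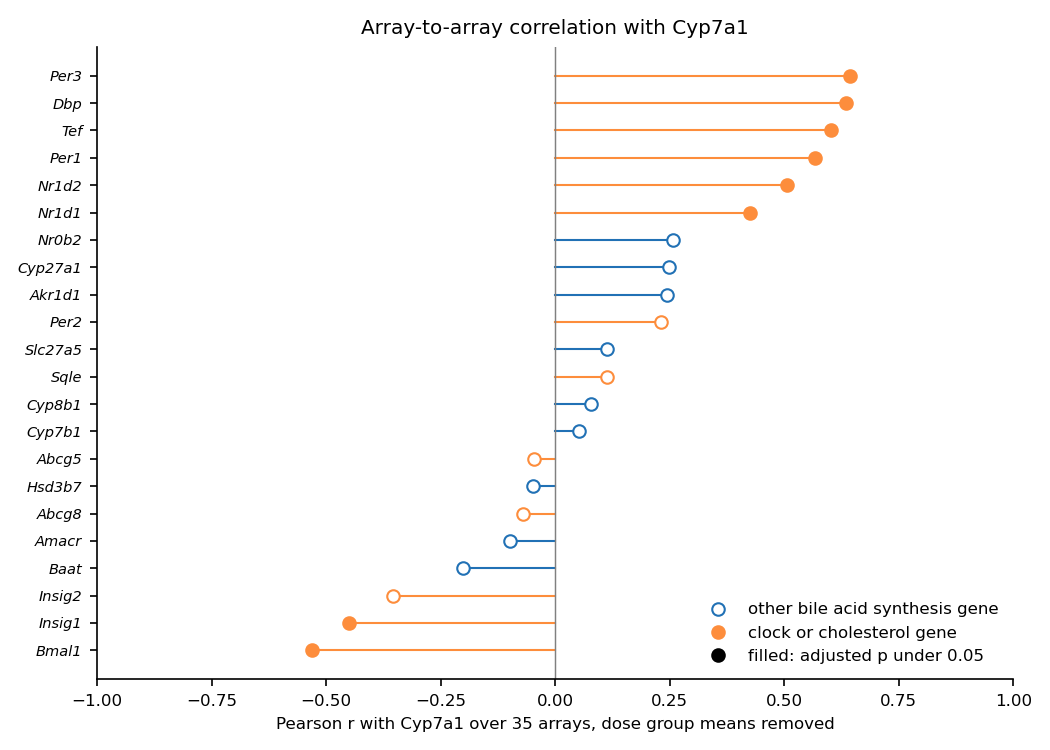
Pearson's r with Cyp7a1 over 35 arrays with dose means removed (horizontal axis) for the 9 other bile acid synthesis genes (blue) and 13 clock and cholesterol genes (orange). Filled points passed adjusted p under 0.05: 8 orange points are filled and no blue one.

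The genes most like Cyp7a1 across the 35 arrays were taken from 14216 other genes by r with the dose means removed, as a description. The 5 highest were Fzd8 (r = 0.834), Rusc2 (0.783), Slc16a12 (0.778), Riox2 (0.761) and Mideas (0.747). The 5 lowest were Ell (r = -0.899), Atxn7l1 (-0.849), Tiparp (-0.846), Vgll4 (-0.825) and Tbc1d8 (-0.821). Of the 8 genes that passed, Per3, Dbp, Tef, Per1, Nr1d2 and Nr1d1 stood at ranks 48, 55, 86, 146, 274 and 597 from the top of this order, and Bmal1 and Insig1 at ranks 193 and 440 from the bottom.

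Of 33 further genes of the pathway 30 were measured, Fdxr, Klb and Slc51b having no probe set with their symbol alone. At 550 mg/kg against vehicle 1 of the 30 rose, Slc27a2, and none fell, with 17 positive and 13 negative differences and a median of 0.05. Over all probe sets 0.354% were called higher and 0.145% lower. Slc27a2, which activates very long chain fatty acids and the bile acid precursor side chain with coenzyme A, had 13.02, 12.98, 12.91, 12.97, 12.96 and 13.01 at 550 mg/kg, against 12.77, 12.77, 12.76, 12.75 and 12.81 in vehicle livers. Every 550 mg/kg array lay above every vehicle array. Ranges of these 2 groups did not overlap for 1.34% of all probe sets. The rise was 0.20 (SE 0.04, interval 0.12 to 0.28, limma adjusted p = 0.0070), or 1.15-fold.

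At 55 mg/kg Slc27a2 had 12.79, 12.89, 12.75, 12.86, 12.83 and 12.75, below every 550 mg/kg array, and 550 against 55 mg/kg gave 0.16 (adjusted p = 0.026). Group ranges did not overlap for 1.15% of all probe sets in that comparison. Its test of any difference among the 6 groups also passed (F = 9.10, adjusted p = 0.0061), and the slope of 0.03 per dose rank did not (adjusted p = 0.067). None of the 30 genes passed against vehicle at the other doses. The call against vehicle held when each of 11 arrays was left out (adjusted p from 0.0051 to 0.028), and ended when only these groups were fitted (adjusted p = 0.17). The call against 55 mg/kg ended without 55 mg/kg replicate 1, 3 or 6 or without 550 mg/kg replicate 1, 2 or 6 (adjusted p up to 0.079).

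By role, all 7 side-chain and peroxisome genes had positive differences at 550 mg/kg against vehicle, with a median of 0.11, and 1 of the 7 passed. Over all probe sets 15835 of 31042 differences were positive and 0.499% passed in either direction. Whether the 7 genes vary independently was not tested. Of 4 further sterol hydroxylases and ring enzymes 3 were positive and none passed; Akr1c14, a reductase of the sterol ring, differed by 0.19 (adjusted p = 0.47). Of 2 electron carriers for the mitochondrial and microsomal P450 enzymes none passed, and Fdx1, the ferredoxin that serves CYP27A1, differed by 0.22 (adjusted p = 0.43). Of 11 regulators 5 were positive, 6 negative and none passed. Fgfr4, the hepatocyte receptor for the intestinal signal that represses Cyp7a1, averaged 7.38 ± 0.08 at 550 mg/kg (SD, n = 6) and 7.66 ± 0.09 in vehicle livers (SD, n = 5), a difference of -0.28 (SE 0.07, interval -0.42 to -0.14, adjusted p = 0.064). Of 6 transporters 1 was positive, 5 negative and none passed; Abcb4, the phospholipid exporter of the bile canaliculus, differed by -0.29 (adjusted p = 0.40).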

How the data were processed

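Liver RNA of 35 samples was hybridised to single-colour Affymetrix 3′ arrays. The authors deposited log2 expression values, computed by RMA in affy according to the submitters' processing notes. Neither versions nor the chip definition were given in the sources used here. RMA equalises array distributions and compresses differences near background. Of 31099 probe sets, 57 controls were left out. The platform annotation gave 20826 a single symbol and 436 several, and 9780 were not listed; 20758 matched the RefSeq genes of GRCr8.

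Groups and replicate numbers came from the labels. Comparisons used limma 3.58.1 in R 4.3.3 (files read with data.table, version 1.17.8): 1 mean per group over all 35 arrays, eBayes, two-sided, Benjamini-Hochberg over 31042 probe sets within each comparison. Correlations used Python 3.11.15 (numpy 2.4.6, pandas 2.3.3); figures used matplotlib 3.10.9. The fits and the correlations were tested on simulated data. Alternatives changed the normalisation, the filter on dim probe sets, the variance moderation, the groups fitted, the probe set rule, the replicate block and, in turn, each array. Members and lists were chosen with earlier results of these data known. Named were all members, further pathway genes that passed or had the smallest p of their role at 550 mg/kg, and the 5 most and least like Cyp7a1. The number of arrays limits precision, with a median 95% half-width of 0.172 at 550 mg/kg. Same-numbered arrays of different groups did not deviate together as a whole (median r = -0.0092 over 85 pairs), so the numbers were not used as pairs. Single pairs ran from -0.306 to 0.269, with 17 over 0.1, and such a median cannot exclude that some samples are linked.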

Additional observations from a re-analysis of the deposited data

Results flagged for a closer look

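In 3 of 84 dose groups examined over 14 genes, a single array stood apart from the others of its group by Dixon's criterion at 95%, which chance alone meets in about 1 of 20 groups. Hsd3b7 in 550 mg/kg replicate 1 was 11.19, the highest of its group, with the other 5 arrays between 10.89 and 10.98. Cyp27a1 in 5.50 mg/kg replicate 1 was 11.58, the highest of its group, with the others between 11.21 and 11.29. Nr0b2 in 55 mg/kg replicate 1 was 8.31, the lowest of its group, with the others between 9.09 and 9.55.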

How the results depend on the processing

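The rise of Akr1d1 at 550 mg/kg against vehicle, and with it the count of 1 member, did not hold under 4 settings: the count was 0 with array medians subtracted (Akr1d1 adjusted p = 0.055), with cyclic loess (0.056), with only the 2 groups fitted (0.32) and with probe sets averaged per gene (difference 0.17, adjusted p = 0.54). It was 0 to 1 when each array was left out in turn. Settings for the 30 further pathway genes were chosen after seeing the data. At 550 mg/kg against vehicle their count was 2 without the dimmest 40% of probe sets (Fgfr4 added, adjusted p = 0.038), 2 with trend and robust eBayes (Hsd17b4 added), 2 with the mean of all probe sets (Fgfr4 added) and 0 with only the 2 groups fitted. At 550 against 55 mg/kg it was 2 under the same 3 settings, 0 with array medians subtracted or only the 2 groups fitted, and 0 to 1 when 1 array was left out. For the slope it was 1 instead of 0 under the same 3 settings and 0 to 1 when 1 array was left out; for any difference among groups it was 2 with trend and robust eBayes or the mean of probe sets. The pairs of members that passed numbered 0 with dose means left in and 0 without the 2 farthest arrays, and the genes that passed with Cyp7a1 numbered 4 and 5. The causes were not tested, except that fitting 2 groups and leaving out arrays leave fewer samples.

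An alternative fit took the replicate numbers as a block, although they were not used as pairs elsewhere. With this block the member count was 1 (Akr1d1 0.28, adjusted p = 0.038), Slc27a2 passed (0.21, adjusted p = 0.015), and Cyp7a1 differed by 0.00 at 550 mg/kg. No value that had passed changed sign. Values that passed in neither fit changed sign in 100 cases, 73 of them with 1 array left out, among them Cyp7a1 at 550 mg/kg against vehicle, which ran from -0.27 to 0.21. Cyp7b1 was dropped with the dimmest probe sets. A difference of Cyp7a1 or Nr0b2 within its wide interval could not be seen with 5 or 6 arrays a group.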

Other observations

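Cholesterol genes that were used here beside Cyp7a1 had their own levels at 550 mg/kg, and 5 of 5 measured were lower than in vehicle livers without passing the test. Over all probe sets 15207 of 31042 differences were negative at that dose. Whether the 5 genes vary independently was not tested. Sqle, a cholesterol synthesis enzyme, averaged 9.17 ± 0.41 at 550 mg/kg (SD, n = 6) and 9.78 ± 0.35 in vehicle livers (SD, n = 5), a difference of -0.61 (limma adjusted p = 0.39). Abcg8, which pairs with Abcg5 to export sterols into bile, averaged 5.99 ± 0.61 at 550 mg/kg (SD, n = 6) and 6.73 ± 0.78 in vehicle livers (SD, n = 5), a difference of -0.74 (limma adjusted p = 0.40). Among the clock genes Dbp averaged 6.58 in vehicle livers, 6.49 at 0.05, 6.27 at 0.55, 6.13 at 5.50, 5.56 at 55 and 6.69 at 550 mg/kg. Its difference at 55 mg/kg against vehicle was -1.03 (limma adjusted p = 1.00). Those genes were picked for this display after their values were seen.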
